A study of Mus musculus with 2 samples.

Results

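Neurexins, neuroligins and cerebellins are 3 families of synapse-organising proteins, and their transcripts were followed here across the cell classes of the newborn mouse cerebellum. The 9 genes Nrxn2, Nrxn3, Nlgn1, Nlgn2, Nlgn3, Cbln1, Cbln2, Cbln3 and Cbln4 were taken by symbol from the 32285 genes of the count matrices. No cut-off on a measured value was used, but earlier results of these data were known when they were chosen. Single nuclei were profiled at postnatal day 1 in 2 libraries, each of 12 pooled cerebella. The control library came from littermates without Cre, recorded with 2 floxed Tox3 alleles (Tox3f/f), while its library name also allows Tox3f/+. The other library was Nestin-cre;Tox3f/f, in which Cre is driven in neural precursors and so acts in neurons and in glia of neural origin alike. It is called the cKO-labelled library below. Nuclei were classed by clustering and by fixed marker lists, and the names below carry "-like" because they were rebuilt from the counts. The granule lineage is covered by granule neuron progenitors (GNP) and granule neurons (GN), and other classes include glutamatergic neurons of the cerebellar nuclei (CN).

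Neurexins sit on the presynaptic membrane and reach across the cleft to postsynaptic partners, of which the neuroligins are the best known. Cerebellins are secreted hexamers that bridge neurexins and glutamate receptor-like proteins such as Grid1. In the cerebellum, Cbln1 released from granule neuron axons holds the parallel fibre synapse on Purkinje cell dendrites together, Cbln3 is a granule neuron cerebellin that depends on Cbln1 for secretion, Nlgn2 is a neuroligin of inhibitory synapses, and Nlgn1 one of excitatory synapses.

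Nrxn3, Nlgn1 and Cbln4 were the members that stood more than 1.5-fold higher in GNP-like nuclei of the cKO-labelled library (below), so their promoters are shown. RefSeq windows of 300 bases, from 250 before to 50 after an annotated start on GRCm38.p6, were found for 5 of the 9 members. Cbln2 was left out of this search beforehand, so its absence is not a failed match. Capitals mark the E-box CANNTG, the general site of basic helix-loop-helix proteins such as Atoh1. The motif reads the same on both strands, and copies may overlap. Nrxn3 has 3 annotated starts here, and the most upstream and the most downstream windows are given. Counts summed over a gene do not separate transcripts from different starts.
Nrxn3, upstream start, chr12:88794254-88794553, plus strand: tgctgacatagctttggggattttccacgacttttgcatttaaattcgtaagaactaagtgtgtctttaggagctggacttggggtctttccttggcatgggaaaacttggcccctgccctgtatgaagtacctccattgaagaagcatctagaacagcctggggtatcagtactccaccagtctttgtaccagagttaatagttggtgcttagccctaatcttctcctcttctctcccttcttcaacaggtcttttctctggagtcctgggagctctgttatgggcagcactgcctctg
Nrxn3, downstream start, chr12:89812233-89812532, plus strand: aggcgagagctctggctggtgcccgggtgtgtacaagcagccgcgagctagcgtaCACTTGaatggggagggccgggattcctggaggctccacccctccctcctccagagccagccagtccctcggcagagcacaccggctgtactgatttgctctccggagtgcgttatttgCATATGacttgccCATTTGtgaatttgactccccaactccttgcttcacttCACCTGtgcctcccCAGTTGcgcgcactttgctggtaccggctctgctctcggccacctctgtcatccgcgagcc
Nlgn1, upstream start, chr3:26331860-26332159, minus strand: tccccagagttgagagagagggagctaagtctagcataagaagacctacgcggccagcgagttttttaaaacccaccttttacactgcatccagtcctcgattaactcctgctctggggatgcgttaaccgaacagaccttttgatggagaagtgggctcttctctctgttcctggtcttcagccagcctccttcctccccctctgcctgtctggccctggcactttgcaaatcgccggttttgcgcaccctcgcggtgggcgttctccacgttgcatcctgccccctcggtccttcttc
Cbln4, chr2:172043417-172043716, minus strand: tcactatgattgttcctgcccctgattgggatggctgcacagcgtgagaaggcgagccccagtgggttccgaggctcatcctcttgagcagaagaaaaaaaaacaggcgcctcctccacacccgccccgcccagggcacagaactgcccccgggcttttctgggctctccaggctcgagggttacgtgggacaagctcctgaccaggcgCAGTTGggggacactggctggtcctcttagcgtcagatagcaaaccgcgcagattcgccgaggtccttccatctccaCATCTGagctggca
The downstream Nrxn3 window held 5 E-boxes and the upstream one 0, the Nlgn1 window held 0, and the Cbln4 window held 2. An E-box was present in 72.3% of all 32851 RefSeq windows of this length, with a median of 1, so its presence is the usual case and its absence says only that these letters are not in the window.

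The matrices held 4857 control barcodes with 22325208 unique molecular identifiers (UMIs, one per captured transcript) and 6946 barcodes with 33726533 UMIs in the cKO-labelled library, and the libraries shared 9 barcode sequences. After removal of nuclei with high mitochondrial content and of the barcodes with the highest doublet scores, 4667 and 6555 nuclei were kept. Of these, 21.7% of control nuclei and 10.7% of the others fell in clusters of low depth (median 619 and 575 UMIs) that were left unnamed and were each filled mostly by 1 library. Tox3 was not lower in the cKO-labelled library, at 118 CPM (UMIs of a gene per 1000000 UMIs) against 104 CPM in control, and in GNP-like nuclei it stood at 547 against 252 CPM. The counts sum all of Tox3, and whether they fall within the deleted part is not given in the sources used here, so they do not check the genotype. GNP-like nuclei were 516 of the control nuclei (11.1%) and 116 of the others (1.77%), which makes the second value of every GNP-like comparison the shallower one. With 1 library per group there is no test. Every 95% interval, exact Poisson for a level, exact conditional binomial for a ratio and Clopper-Pearson for a share, covers counting error alone, and a difference between the libraries cannot be told apart from a difference between any 2 pools of animals.

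Across the whole library, 2 of the 9 members were at least 1.5-fold apart, against 14.8% of the 20214 genes with at least 20 UMIs. They were Cbln4, with 95 UMIs (4.64 CPM) in control and 212 (7.03 CPM) in the cKO-labelled library, a ratio of 1.52 (95% interval 1.18 to 1.95), and Cbln2, with 48 and 126 UMIs, a ratio of 1.78 (1.27 to 2.54). The shares of the cell classes differed between the libraries, so the levels of the cKO-labelled library were also weighted with the class shares of control. Cbln1, at 78.3 CPM in control and 56.9 CPM in the cKO-labelled library (ratio 0.727), came to 0.935 under control shares. Nlgn1 went from a ratio of 1.41 to 1.25 and Nrxn3 from 1.22 to 1.10. Cbln2 went from 1.78 to 1.37, which is under 1.5-fold. Cbln4 moved the other way, from 1.52 to 2.59. GNP-like nuclei held 10.0% of control UMIs and 1.44% of those of the cKO-labelled library, where their Cbln4 level rests on 25 UMIs. These weighted ratios are given without an interval. A whole-library ratio of these genes thus mixes class levels with class shares, and the classes are described one by one below.

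**Figure D1:**
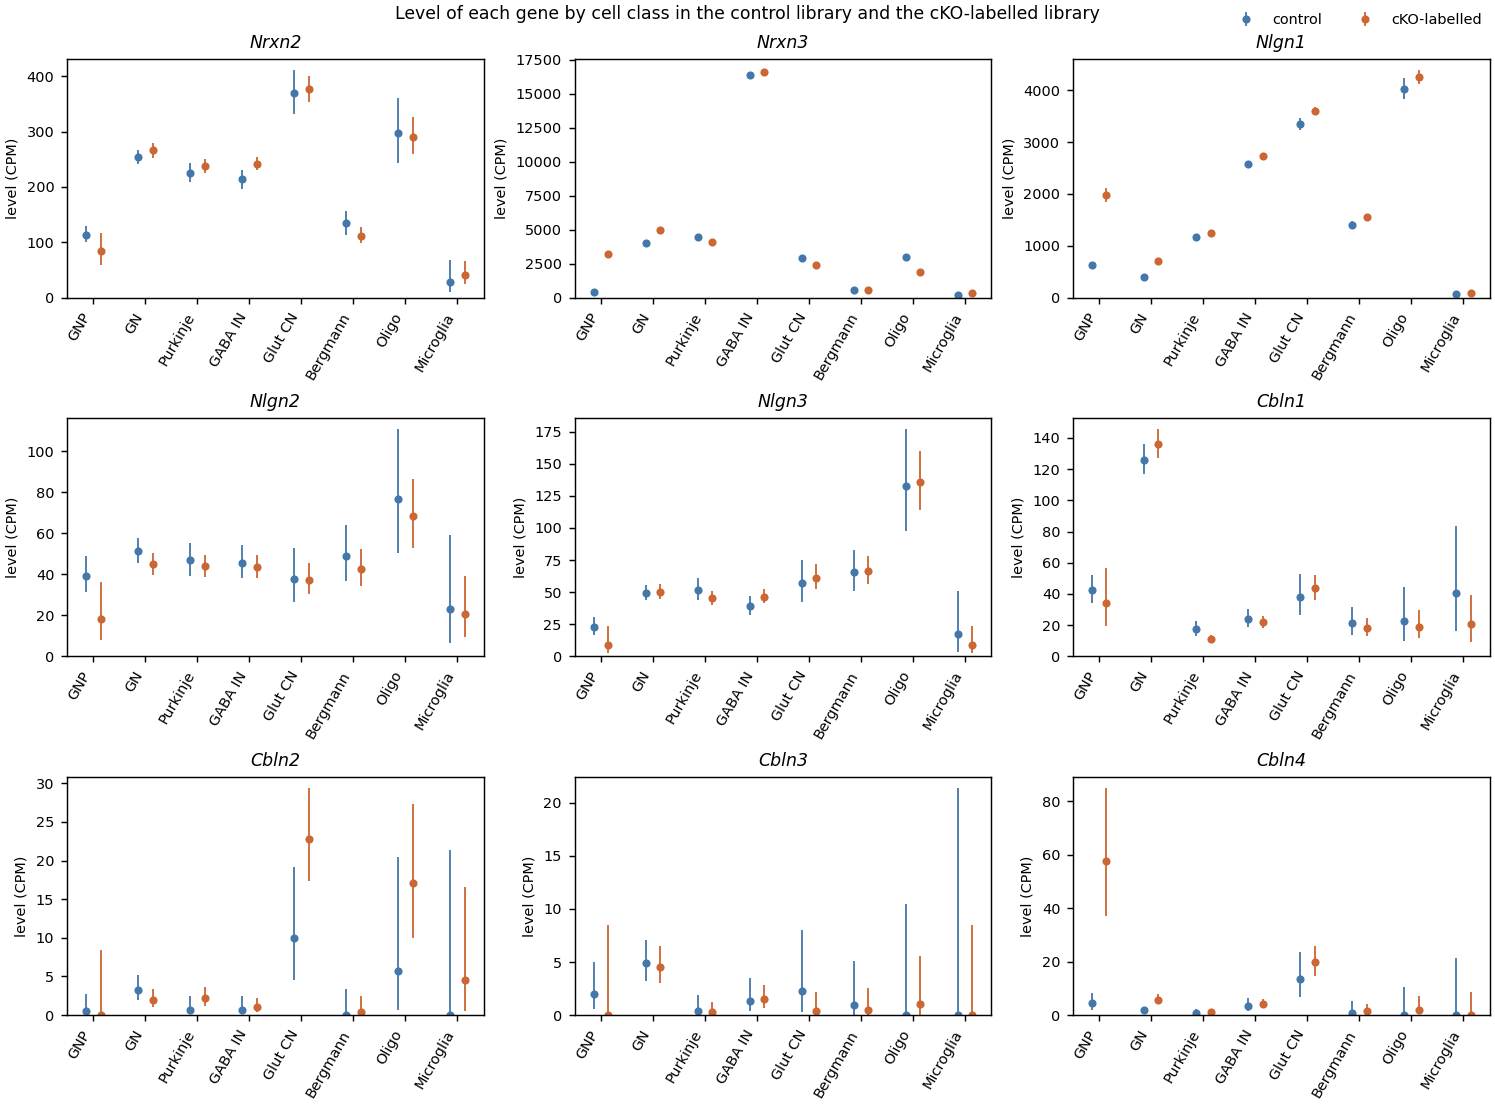
Level of each member in CPM (linear axes that start at 0) in 8 cell classes, with exact Poisson 95% intervals that cover counting error only; blue is control and orange the cKO-labelled library, 1 library each. Nrxn3 stood far above its other classes in GABAergic interneuron-like (GABA IN) nuclei at 16369 and 16625 CPM, Nlgn1 and Nlgn3 were highest in oligodendrocyte lineage-like (Oligo) nuclei, and Cbln1 stood highest of the 8 in GN-like nuclei.

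Among the neurexins, Nrxn3 (ENSMUSG00000066392; GRCm38, as for all gene positions here, chromosome 12, 88722876 to 90334935, plus strand) was the transcript with the steepest order of classes. GABAergic interneuron-like nuclei held 16369 CPM in control and 16625 CPM in the cKO-labelled library, a ratio of 1.02 (1.00 to 1.03). They carried 47.9% of all Nrxn3 UMIs of control with 14.3% of its UMIs overall. Next among the classes of control given here came Purkinje cell-like nuclei at 4498 CPM, GN-like nuclei at 4009 CPM, oligodendrocyte lineage-like nuclei at 2976 CPM and CN-like nuclei at 2894 CPM. The intervals of the last pair overlapped and those before did not. Bergmann glia-like nuclei had 557 CPM and GNP-like nuclei 430 CPM. Microglia-like nuclei, a class not expected to make Nrxn3 and used here as a gauge of free RNA, held 220 CPM in control and 336 CPM in the cKO-labelled library.

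Nrxn3 also divided the interneurons. Of the 4 interneuron-like clusters, cluster 7 was highest with 25794 CPM in control and 26505 CPM in the cKO-labelled library. Cluster 12 followed with 16880 and 18005 CPM, then cluster 15 with 13417 and 12476 CPM, and cluster 8 with 11632 and 11421 CPM. The order was the same in both libraries, and the ratios ran from 0.930 to 1.07. In cluster 15, which also carried GABAergic progenitor markers (401 CPM summed in control against 70.3 CPM or less in the others), control nuclei spread widely, with a median of 12.0 Nrxn3 UMIs per 1000 UMIs, a 10th percentile of 0.290 and a 90th percentile of 28.6. No Nrxn3 or Nlgn1 count entered the clustering, since members were removed from its features.

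Nlgn1 split the same 4 clusters in another order. It was highest in cluster 8, at 4282 CPM in control and 4559 CPM in the cKO-labelled library, and lowest in cluster 15, at 682 and 645 CPM. Cluster 7 held 1938 and 2084 CPM, and cluster 12 held 1463 and 1197 CPM. Cluster 8, lowest of the 4 for Nrxn3, was thus highest for its ligand Nlgn1. Over the whole class, 0 of 7 members with enough UMIs were 1.5-fold apart between the libraries, where 10.8% of genes were.

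**Figure D2:**
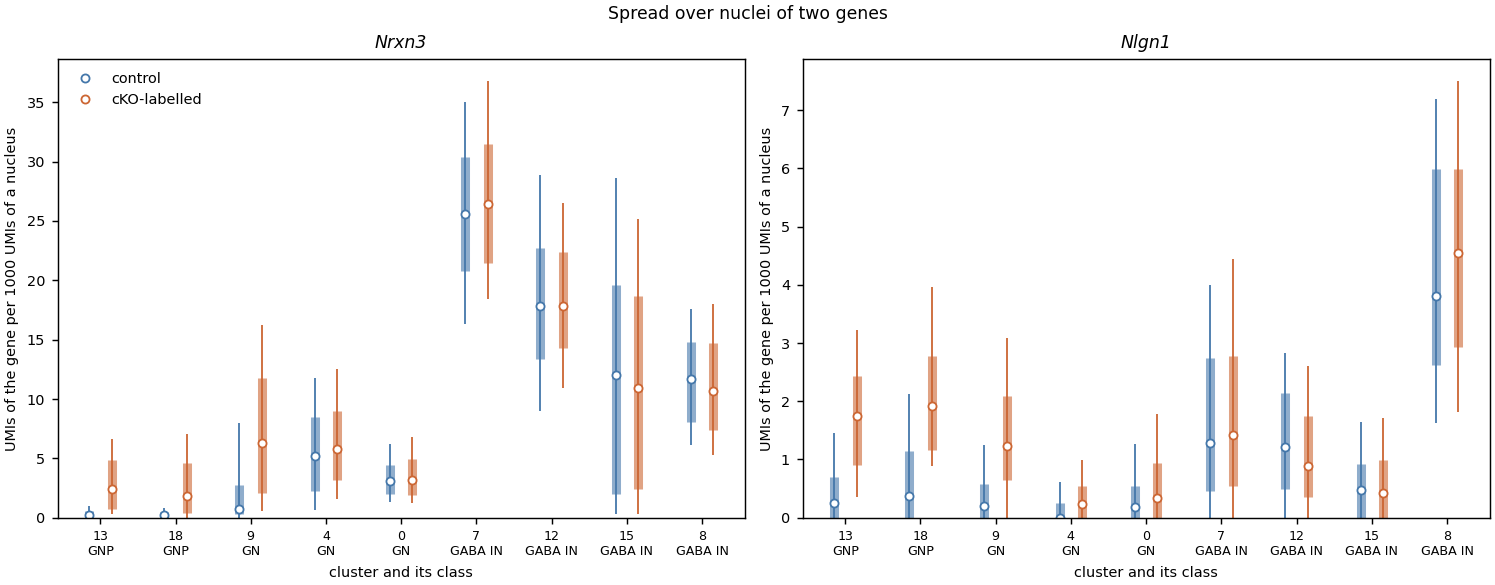
UMIs of Nrxn3 (left) and Nlgn1 (right) per 1000 UMIs of a nucleus in 9 clusters (linear axes); open circles are medians over nuclei, thick bars the 25th to 75th percentiles and thin lines the 10th to 90th percentiles, blue for control and orange for the cKO-labelled library. Nuclei are not replicates. The median Nrxn3 and Nlgn1 of the cKO-labelled library lay above control in clusters 13, 18, 9, 4 and 0. In the interneuron-like (GABA IN) clusters the medians went in both directions, as for Nlgn1 with 3.81 and 4.55 in cluster 8 and 1.22 and 0.890 in cluster 12. The 10th to 90th percentile ranges of the libraries overlapped in every cluster shown.

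The largest ratios between the libraries were in the granule lineage. In GNP-like nuclei Nrxn3 had 884 UMIs (430 CPM) in control and 1405 UMIs (3232 CPM) in the cKO-labelled library, from 516 and 116 nuclei, a ratio of 7.51 (6.90 to 8.18). Of the 11176 genes tested in this class, 0.170% had a higher ratio. The ratio was 4.62 when nuclei were classed one by one by a gate on marker UMIs, and 13.8 when the microglia-like level of each library was subtracted. After each nucleus was thinned to 1000 UMIs, 27.0% of control nuclei (23.2 to 31.0) and 74.1% of the others (65.1 to 81.8) kept an Nrxn3 UMI, and without thinning 61.6% and 90.5% did. The thinned share in microglia-like nuclei was 21.6% and 27.7%, so the control GNP-like share stood near that background and the other far above it. The median nucleus carried 0.245 Nrxn3 UMIs per 1000 in control and 2.25 in the cKO-labelled library, where the 75th percentile was 4.67. The 3232 CPM of that library compare with 4009 CPM in control GN-like nuclei.

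Both GNP-like clusters had the difference. In cluster 13, Nrxn3 held 510 CPM in control and 3366 CPM in the cKO-labelled library, a ratio of 6.60 (5.98 to 7.30), and in cluster 18 it had 313 and 2852 CPM, a ratio of 9.12 (7.73 to 10.8). It continued into cluster 9, the GN-like cluster with the most progenitor marker RNA, with 2652 and 8263 CPM and a ratio of 3.12 (2.97 to 3.27). Marker sums also differed in cluster 9, with the GNP list at 1074 CPM in control and 634 CPM in the cKO-labelled library. The GN list stood at 10361 and 11870 CPM there, and the part of these lists in the ratio was not tested. In the remaining GN-like clusters the Nrxn3 difference was small, with 6048 and 6739 CPM in cluster 4 (1.11) and 3475 and 3739 CPM in cluster 0 (1.08). Cluster 2, an unnamed cluster with granule neuron markers, had 2013 and 2028 CPM (1.01). In control, Nrxn3 was thus lowest in the 2 GNP-like clusters, highest in cluster 4 and intermediate in clusters 0, 2 and 9, and in the cKO-labelled library the peak was in cluster 9.

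Markers moved beside this. The GNP list summed to 3441 CPM in control GNP-like nuclei and 3395 CPM in the cKO-labelled library, with 12 and 10 of its 12 genes detected. Atoh1, the factor that keeps granule progenitors cycling, and Fgfr4 were at 0 in the latter. The GN list summed to 5016 and 7227 CPM (10 of 10 genes in each). That list is not particular to granule neurons, with 12248 CPM in interneuron-like and 8479 CPM in GN-like nuclei of control. The GABAergic interneuron list, whose cells hold the most Nrxn3, summed to 50.1 CPM (7 of 7 genes) and 106 CPM (6 of 7 genes), against 2190 CPM or more in each interneuron-like cluster of control. The Bergmann glia list summed to 464 and 644 CPM (7 of 7 genes in each) and the parenchymal astrocyte list to 368 and 616 CPM (8 and 6 of 8 genes, with Agt and Gfap at 0 in the latter). The part of these lists in the Nrxn3 difference was not tested. In the 360 control and 85 other GNP-like nuclei that held no UMI of the sparse GABAergic markers, Nrxn3 stood at 410 and 2867 CPM, a ratio of 6.99 (6.28 to 7.78).

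**Figure D3:**
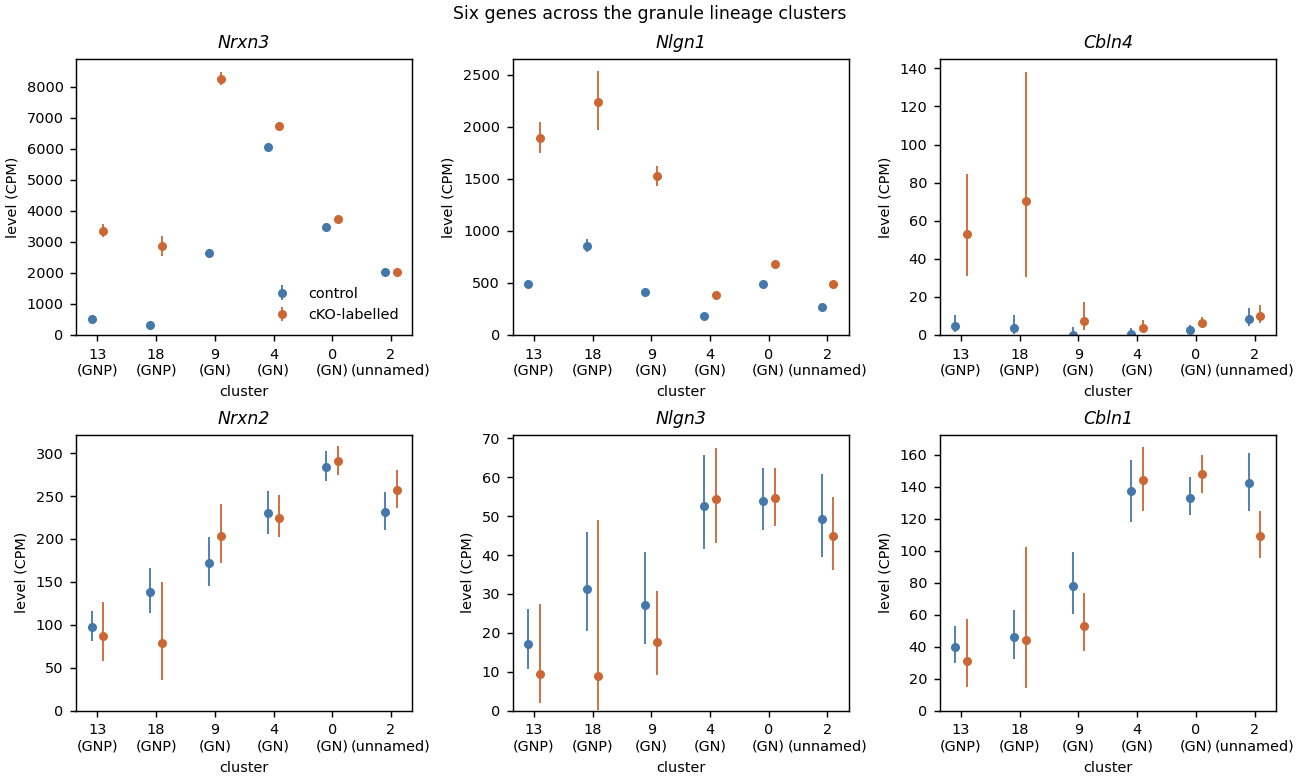
Levels of 6 members in CPM (linear axes that start at 0) in the 2 GNP-like clusters, the 3 GN-like clusters and cluster 2, with exact Poisson 95% intervals for counting error; blue is control and orange the cKO-labelled library. Nrxn3, Nlgn1 and Cbln4 lay above control in clusters 13 and 18, while Nrxn2, Nlgn3 and Cbln1 had overlapping intervals there.

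Nrxn2 (ENSMUSG00000033768; chromosome 19, 6418731 to 6544169, plus strand) had a flatter profile. Control CN-like nuclei held 369 CPM (331 to 411), oligodendrocyte lineage-like nuclei 298 CPM, GN-like nuclei 254 CPM, and Purkinje cell-like and interneuron-like nuclei 226 and 214 CPM, each with an interval overlapping that of its neighbour. Bergmann glia-like nuclei with 134 CPM and GNP-like nuclei with 114 CPM lay below all of these, and microglia-like nuclei had 28.9 CPM. Across the granule lineage of control it went from 97.2 CPM in cluster 13 to 284 CPM in cluster 0. No named class compared had a 1.5-fold difference in Nrxn2, and in GNP-like nuclei it stood at 114 and 85.1 CPM, a ratio of 0.748 (0.514 to 1.06). The ratio of its relative Nrxn3 in the same nuclei lay outside that interval.

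Levels of different genes were set side by side only per length. Per 10 kb of gene span in the whole library, Nrxn3 held 30.4 CPM in control and 37.1 CPM in the cKO-labelled library, and Nrxn2 had 18.1 and 19.8. Among neuroligins, Nlgn2 had 33.1 and 29.3, Nlgn3 18.2 and 19.4, and Nlgn1 13.9 and 19.5. Cbln1 had 186 and 135, against 6.41 and 9.71 for Cbln4, 4.36 and 3.15 for Cbln3 and 3.26 and 5.82 for Cbln2. Long genes yield many intronic reads in nuclei, and whether introns were counted is not given in the sources used here.

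Nlgn1 (ENSMUSG00000063887; chromosome 3, 25426215 to 26332460, minus strand) was highest in oligodendrocyte lineage-like nuclei, with 4028 CPM (3821 to 4243) in control and 4252 CPM in the cKO-labelled library. CN-like nuclei, which are excitatory neurons, held 3347 and 3606 CPM. Interneuron-like nuclei had 2580 and 2727 CPM, Bergmann glia-like nuclei 1405 and 1561 CPM, and Purkinje cell-like nuclei 1177 and 1252 CPM. Control GNP-like nuclei had 637 CPM and GN-like nuclei 397 CPM, so the most numerous excitatory neurons were the lowest of the named neural classes. Microglia-like nuclei had 69.5 and 85.0 CPM.

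Nlgn1 was higher in the cKO-labelled library across the whole granule lineage. In GNP-like nuclei it had 1309 UMIs (637 CPM) in control and 862 UMIs (1983 CPM) in the other library, a ratio of 3.11 (2.85 to 3.40), which 1.15% of tested genes exceeded. The thinned share of nuclei with a UMI was 34.3% (30.2 to 38.6) and 76.4% (67.6 to 83.8), and without thinning 61.0% and 93.1%, against thinned shares of 4.37% and 7.64% in microglia-like nuclei. In GN-like nuclei it had 397 and 705 CPM, a ratio of 1.78 (1.69 to 1.87), or 2.82 without cluster 0. By cluster the ratio was 3.87 in cluster 13 (489 and 1892 CPM), 2.62 in cluster 18 (855 and 2238 CPM), 3.72 in cluster 9 (409 and 1522 CPM), 2.11 in cluster 4 (180 and 380 CPM) and 1.41 in cluster 0 (486 and 684 CPM). Cluster 2 had 266 and 491 CPM, a ratio of 1.84 (1.65 to 2.06), and it was the 1 member of 7 past 1.5-fold there, against 17.0% of genes. Unlike that of Nrxn3, the Nlgn1 ratio thus stayed above 1.4 in each of these 6 clusters. Without cluster 9, the GN-like ratio of Nlgn1 was 1.53 and that of Nrxn3 1.07. Glial marker lists were also higher in these nuclei. In GN-like nuclei the parenchymal astrocyte list summed to 172 and 361 CPM (7 of 8 genes in each, with Agt at 0 in control and Gfap in the other) and the Bergmann glia list to 330 and 446 CPM (7 of 7 genes in each), while in Bergmann glia-like nuclei the latter summed to 10834 and 10648 CPM. By cluster the astrocyte list stood at 302 and 602 CPM in cluster 13, 465 and 658 CPM in cluster 18, 237 and 330 CPM in cluster 9, 173 and 429 CPM in cluster 4, 156 and 341 CPM in cluster 0 and 353 and 570 CPM in cluster 2. The GN list of cluster 2 was lower, with 11057 and 8544 CPM. Their part in the Nlgn1 difference was not tested. Outside the granule lineage the Nlgn1 ratio lay between 1.06 in Purkinje cell-like and 1.22 in microglia-like nuclei among the named classes given here. It was below 1 in the unnamed clusters 19, at 0.764 (0.666 to 0.877), and 17, at 0.897 (0.821 to 0.980). Among the interneuron-like clusters it was 0.818 (0.752 to 0.890) in cluster 12 and 0.945 (0.820 to 1.09) in cluster 15. Clusters 7 and 8 had 1.08 and 1.06.

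Nlgn2 (ENSMUSG00000051790; chromosome 11, 69823122 to 69837784, minus strand) was nearly even across classes. In the named classes compared, control levels outside microglia-like nuclei ran from 37.9 CPM in CN-like to 76.5 CPM in oligodendrocyte lineage-like nuclei. Interneuron-like nuclei had 45.7 CPM and microglia-like nuclei 23.2 CPM (6.31 to 59.3), and each interval overlapped the next in the order. The unnamed cluster 17 held 26.6 CPM (12.8 to 48.9) and the low depth clusters 104 CPM in control. In GNP-like nuclei it had 81 UMIs (39.4 CPM) in control and 8 UMIs (18.4 CPM) in the cKO-labelled library, a ratio of 0.467 (0.195 to 0.965).

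Nlgn3 (ENSMUSG00000031302; chromosome X, 101299168 to 101325963, plus strand) was highest in oligodendrocyte lineage-like nuclei, at 133 CPM (97.9 to 177) in control and 136 CPM (114 to 160) in the cKO-labelled library. Bergmann glia-like nuclei followed with 65.4 and 66.8 CPM, and their interval did not reach the first. The neuronal classes of control given here lay between 39.2 CPM in interneuron-like and 56.9 CPM in CN-like nuclei, and GNP-like nuclei had 22.9 CPM, near the 17.4 CPM of microglia-like nuclei. In GNP-like nuclei the counts were 47 and 4 UMIs, a ratio of 0.402 (0.105 to 1.10), an interval that includes 1. Together 5 of 7 members with at least 20 UMIs were 1.5-fold apart in GNP-like nuclei, 3 higher (Nrxn3, Nlgn1, Cbln4) and 2 lower (Nlgn2, Nlgn3), against 32.5% of genes. The 2 lower ones rested on 8 and 4 UMIs in the cKO-labelled library.

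Cbln1 (ENSMUSG00000031654; chromosome 8, 87468405 to 87472609, minus strand) is a product of excitatory neurons born at the rhombic lip. Cluster 2 held 142 CPM (125 to 161) in control and 109 CPM in the cKO-labelled library, and GN-like nuclei held 126 (117 to 136) and 136 CPM, and in control their intervals overlapped. GNP-like nuclei held 42.3 and 34.5 CPM. Within the granule lineage of control, the level went from 40.0 and 45.7 CPM in the GNP-like clusters 13 and 18 to 77.7 CPM in cluster 9 and 137 and 133 CPM in clusters 4 and 0. GN-like nuclei supplied 45.1% of control Cbln1 UMIs with 28.0% of all UMIs. Purkinje cells, which receive Cbln1 at their synapses, had 17.3 and 11.0 CPM, below the 40.5 (16.3 to 83.5) and 20.7 CPM of microglia-like nuclei, so no level above background was detectable in them. Their ratio of 0.632 (0.432 to 0.930) therefore lay within background, and Cbln1 was the 1 of 6 members past 1.5-fold there, against 12.6% of genes. The low depth clusters held more Cbln1 than any named class, with 288 and 214 CPM.

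The GN-like levels of Cbln1 were close in the libraries, with 724 and 843 UMIs and a ratio of 1.08 (0.978 to 1.20), and thinned shares of 11.7% (9.88 to 13.7) and 12.6% (10.9 to 14.4), or 43.9% and 41.2% without thinning. The ratio was 1.10 in cluster 0, 1.05 in cluster 4 and 0.680 (0.440 to 1.04) in cluster 9. Cluster 2 stood at 0.767 (0.638 to 0.922).

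Cbln4 (ENSMUSG00000067578; chromosome 2, 172036233 to 172043466, minus strand) was sparse, and control CN-like nuclei held 12 UMIs or 13.4 CPM (6.92 to 23.4). No Cbln4 UMI was found in microglia-like nuclei of either library, which, at a limit of 3 nuclei, allows up to 5.66% of the control nuclei and 1.97% of the others to hold one. In GNP-like nuclei it had 9 UMIs (4.38 CPM) in control and 25 UMIs (57.5 CPM) in the cKO-labelled library, a ratio of 13.1 (5.93 to 32.0) that 0.0716% of tested genes exceeded. A UMI was seen in 1.74% (0.801 to 3.29) of control and 19.0% (12.3 to 27.3) of the other GNP-like nuclei, or in 0.430% and 5.65% after thinning. Clusters 13 (6 and 17 UMIs) and 18 (3 and 8 UMIs) both had it. In GN-like nuclei there were 10 and 36 UMIs, 1.74 and 5.82 CPM, a ratio of 3.34 (1.62 to 7.55) that was 8.52 under the marker gate. Without cluster 0 the ratio was 10.8 (1.54 to 469), from 1 and 10 UMIs. Without cluster 4 it was 3.12 (1.45 to 7.44) and without cluster 9 it was 2.76 (1.32 to 6.30).

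Cbln2 (ENSMUSG00000024647) had its highest level in CN-like nuclei, with 9 UMIs or 10.0 CPM (4.59 to 19.1) in control and 59 UMIs or 22.8 CPM (17.3 to 29.4) in the cKO-labelled library, a ratio of 2.27 (1.12 to 5.20). CN-like nuclei supplied 18.8% of its control UMIs and 46.8% of those of the other library, and the more numerous GN-like nuclei 39.6% and 9.52%. The share of all UMIs also differed, at 4.37% and 8.59% for CN-like and 28.0% and 20.5% for GN-like nuclei. Cbln2 was the 1 member of 8 past 1.5-fold in CN-like nuclei, where 19.2% of genes were. Oligodendrocyte lineage-like nuclei had 2 and 17 UMIs, 5.67 CPM (0.687 to 20.5) and 17.1 CPM (9.94 to 27.3), and these intervals overlapped those of CN-like nuclei in both libraries. In GN-like nuclei it went the other way, with 19 UMIs in control and 12 in the cKO-labelled library, a ratio of 0.586 whose interval of 0.260 to 1.27 includes 1. With Nlgn1 and Cbln4 it made 3 of 9 members past 1.5-fold in GN-like nuclei, against 12.3% of genes.

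Cbln3 (ENSMUSG00000040380; chromosome 14, 55878913 to 55884392, minus strand) was barely counted at this age, with 49 UMIs in control and 52 in the cKO-labelled library. GN-like nuclei gave 28 UMIs in each, 57.1% and 53.8% of all, at 4.88 CPM (3.24 to 7.05) and 4.53 CPM, a ratio of 0.929 (0.530 to 1.63). GNP-like nuclei gave 4 and 0, and microglia-like nuclei 0 in both. A difference of Cbln3 inside that interval could not be seen at this depth.

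In the glial classes the libraries were close for most members. Bergmann glia-like nuclei had 0 of 6 members past 1.5-fold, against 15.9% of genes. In oligodendrocyte lineage-like nuclei 1 of 6 was, against 25.9% of genes: Nrxn3 had 1050 UMIs (2976 CPM) in control and 1849 UMIs (1856 CPM) in the cKO-labelled library, a ratio of 0.624 (0.578 to 0.673). Neuronal marker lists were also lower in these nuclei, with the GN list at 2322 and 1753 CPM (10 and 9 of 10 genes) and the GABAergic interneuron list at 150 and 98.4 CPM (7 of 7 genes in each), while the oligodendrocyte lineage list stood at 1896 and 2320 CPM (7 and 8 of 8 genes). Their part in the Nrxn3 difference was not tested. Nlgn1, Nlgn3 and Nrxn2 had ratios of 1.06, 1.02 and 0.978 in the same nuclei. In microglia-like nuclei, Nrxn3 at 220 and 336 CPM was the 1 of 3 members past 1.5-fold, against 26.5% of genes.

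**Figure D4:**
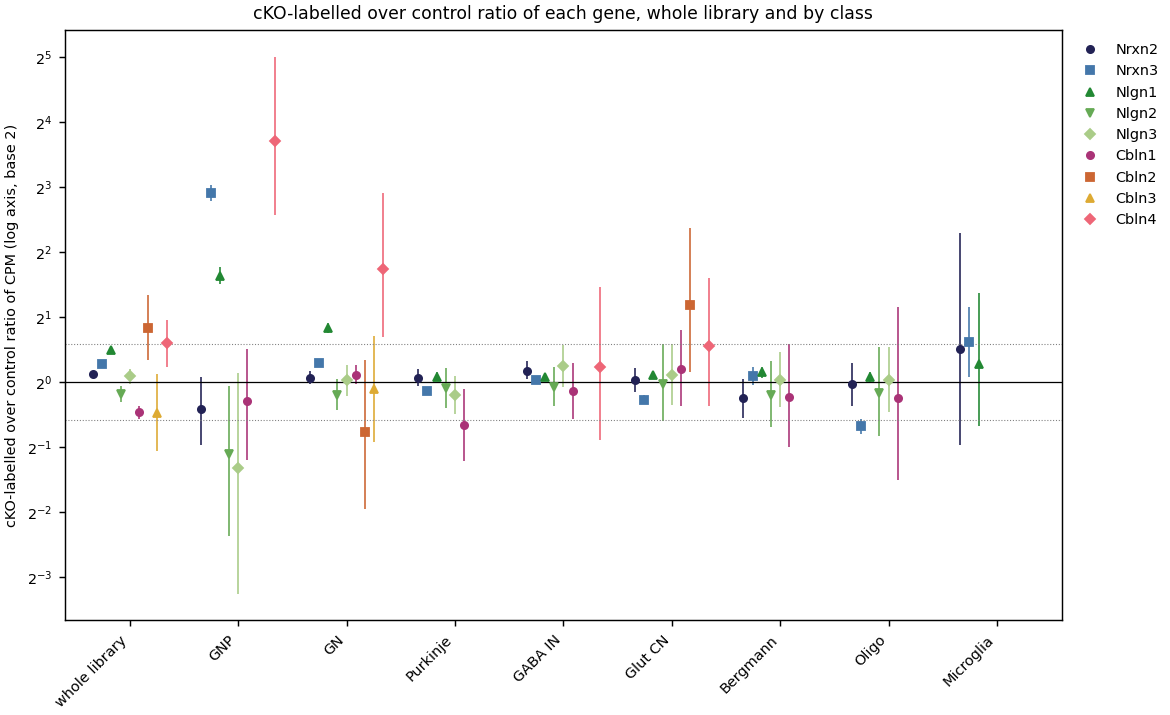
Ratio of the cKO-labelled library to control for each member with at least 20 UMIs, over the whole library and in 8 classes (log axis, base 2), with exact conditional binomial 95% intervals for counting error. The solid line marks equal levels and the dotted lines 1.5-fold; Cbln4, Nrxn3 and Nlgn1 stand highest in GNP-like nuclei at 13.1, 7.51 and 3.11, and most other points lie between the dotted lines.

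Partners of the members were read from a list of 31 genes. Over the whole library 29 were counted well enough and 0 were at least 1.5-fold higher, while 3 were lower, against 14.8% of all genes: Mdga1, which binds neuroligins and keeps neurexins off them, at 118 and 56.4 CPM (0.480, 0.451 to 0.511), Igsf21, a neurexin ligand of inhibitory synapses, at 198 and 126 CPM (0.637, 0.609 to 0.666), and Nxph3, a neurexophilin, at 5.81 and 3.81 CPM (0.656, 0.504 to 0.855). Their direction was not the same in every class. At the same fold, Mdga1, Igsf21 and Nxph3 were lower in Purkinje cell-like nuclei. Mdga1 was also lower in GN-like nuclei and cluster 2, and Igsf21 in Bergmann glia-like nuclei and cluster 19. Nxph3 was higher in CN-like nuclei and Mdga1 in oligodendrocyte lineage-like nuclei. In GNP-like nuclei 9 of 28 partners were 1.5-fold apart (4 higher, 5 lower), against 32.5% of all genes, so the partners stood at the level of genes in general there. In GN-like nuclei 5 of 28 were (2 higher, 3 lower), against 12.3% of genes, and in interneuron-like nuclei 0 of 26, against 10.8%.

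The cerebellin receptor Grid1 was not 1.5-fold apart in any class given here in which it was tested. It had 672 and 688 CPM in Purkinje cell-like nuclei and 921 and 928 CPM in oligodendrocyte lineage-like nuclei. In GNP-like nuclei it stood at 56.4 and 75.9 CPM, a ratio of 1.34 (0.885 to 1.99). In CN-like nuclei, where Cbln2 was highest, Grid1 stood at 366 and 528 CPM, a ratio of 1.44 (1.28 to 1.63).

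Genes with the most similar class pattern were ranked among 12901 genes by the mean over both libraries of Pearson's r over 9 classes. These are descriptions over few points that share libraries and depth. Nrxn2 was closest to Fgf12 (0.97), Gm5441 (0.97) and Adgrl3 (0.96). Nrxn3 was closest to Cacna2d3 (0.92), Sez6 (0.90) and Edil3 (0.89). Nlgn2 was closest to Nlgn3 (0.92), then Ncan (0.91) and Lrrc4b (0.89), and Nlgn3 to Lhfpl3 (0.96), Ncan (0.93) and Cspg5 (0.93). Cbln1 was closest to Gm2694 (0.96), 1700120C18Rik (0.95) and Kcnk9 (0.94). The lists of the remaining cerebellins rest on under 100 UMIs in control: Prr16, Tmem163 and Nr4a1 for Cbln2 (0.91, 0.89 and 0.87), Cnr1, Gm35330 and Gm42912 for Cbln3 (0.91 each) and Trpc5, Tpbg and Gm43000 for Cbln4 (0.89, 0.84 and 0.82).

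Some of these pairs may share reads. Gm2694 is a long noncoding RNA whose annotated span contains Cbln1 on the opposite strand. It had 4304 UMIs in control and 4568 in the cKO-labelled library, against 1604 and 1716 of Cbln1, and how strand was used in counting is not given in the sources used here, so their reads cannot be told apart with certainty. Nlgn1 was closest to Acp1 (1.00), well ahead of Agrn (0.92) and Lsamp (0.91). Acp1, a phosphatase gene on chromosome 12, held 10.9 to 16.9% as many UMIs as Nlgn1 in the neuronal and progenitor classes of control given here and 9.98 to 13.6% in those of the cKO-labelled library. In GNP-like nuclei Acp1 stood at 91.0 and 198 CPM. The annotation places the processed pseudogene Gm6197 inside Nlgn1, on the opposite strand. Whether Acp1 counts hold Nlgn1 reads was not tested, and Acp1 is given as uncertain. In the annotation used here (GENCODE vM21, GRCm38), Nrxn3 overlaps 5 other genes, Nlgn1 4, Nrxn2 3 and Nlgn3 1, and Nlgn2, Cbln2, Cbln3 and Cbln4 overlap 0.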

How the data were processed

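Nuclei from mouse cerebella at postnatal day 1 were captured with a droplet 3' kit, 1 control library and 1 Nestin-cre;Tox3f/f library of 12 pooled cerebella each. The authors aligned the reads and deposited raw UMI counts per gene and barcode, made with Cell Ranger 7.0.1 on mm10 per the labels. Whether intronic reads were counted, and how strand was used, are not given in the sources used here. The counts were used as deposited, with no correction for free RNA.

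Barcodes over 25% mitochondrial UMIs were removed, as were those with the highest Scrublet scores (scanpy 1.11.5), at 0.8% per 1000 barcodes (189 of control, 386 of the other library). Nuclei were integrated and clustered with Seurat 5.3.0 in R 4.3.3 (3000 variable features less the members and partners, 20 dimensions, resolution 0.8), giving 24 clusters. Marker genes were not removed from these features, so the clusters are not independent of the lists that name them. A cluster was named when at least 3 markers of a fixed list, its first among them, were detected in at least 10% of nuclei and 2-fold above the median of other clusters. It stayed unnamed on a tie, when more of its 10 leading genes marked another class, or at low depth. This naming rule was set after the clusters were seen. UMIs were summed per class and library and divided by the total (CPM). Classes with at least 50 nuclei in each library were compared, and genes needed at least 20 UMIs over both libraries; a count of 0 was set to 3 UMIs for fold counts over all genes. The fold rule and the ratio intervals were tested on simulated counts.

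All members are named, together with the partners past 1.5-fold over the whole library, Grid1, and the 3 genes most similar to each member in log2(CPM + 10) over the classes, among genes with at least 100 UMIs in each library. One cell class and one partner gene are not reported here, though they stand in the counts over classes and partners. Members and lists were chosen with earlier results of these data known. Alternatives changed the scaling, the doublet removal, the resolution, the naming (a gate on marker UMIs in each nucleus), the depth (1000 or 2000 UMIs), the minimum of 1000 genes, the class shares, the background and the fold or UMI minimum, and others, left-out clusters, low depth nuclei and nuclei with GABAergic marker UMIs, were chosen after seeing the data.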

Additional observations from a re-analysis of the deposited data

Results flagged for a closer look

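Nrxn3 stood out because its difference between the libraries ran in opposite directions in different classes: its ratio of the cKO-labelled library to control was 7.51 in GNP-like and 1.53 in microglia-like nuclei but 0.624 in oligodendrocyte lineage-like nuclei. The microglia-like level, 220 and 336 CPM, is the one used as a gauge of free RNA, so its ratio is one of background. Each interval for counting error excluded 1. With 1 library per group the difference between these ratios was not tested.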

How the results depend on the processing

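No direction of a ratio past 1.5-fold turned under an alternative. Over the whole library 2 members were past 1.5-fold, and the count was 1 with doublets kept, 0 after thinning to 1000 UMIs and 0 at a fold of 2. Of 59 member and class pairs, 13 (22.0%) were past 1.5-fold, where 10.8% to 32.5% of all genes were in the single named classes. Of the pairs, 5 were after thinning, 7 at a fold of 2 and 6 at a minimum of 100 UMIs. The shares of all genes under the alternatives are not given here. In GNP-like nuclei the 5 members became 3 after thinning and 2 at a minimum of 100 UMIs. In GN-like nuclei the 3 members became 1 with doublets kept, under the marker gate, after thinning, at a fold of 2 and at a minimum of 100 UMIs. Thinning leaves fewer UMIs, so fewer members reach the minimum. With doublets kept, the rebuilt clusters named GN-like held 322 control nuclei in place of 1133.

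Of the member ratios in classes, a marker gate put Nlgn1 in microglia-like nuclei at 4.77 and, with the microglia-like level subtracted, Cbln1 in GNP-like nuclei went from 0.815 to 7.62, a difference of levels near that background; the cause of the first was not tested. The class highest in a member was the same for 9 of 9 members after thinning, 8 under the marker gate and 7 with doublets kept.

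Depth limits Cbln2, Cbln3 and Cbln4, which had under 100 UMIs in control, and the 116 GNP-like nuclei of the cKO-labelled library limit every value of that class. No paired analysis was possible because each group has 1 library.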
